A study of Homo sapiens with 12 samples.

Results

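BON-1 cells recovered from co-culture with CAFs at a ratio of 10:4 were compared with BON-1 cells recovered from co-culture at 10:2. The members are the 3 libraries labelled 10:4 and the 3 labelled 10:2, 6 of the 12 libraries of the series, and they were taken by these labels. Both sides come from co-culture, so what sets them apart by label is the number of CAFs: 4 parts in place of 2 for every 10 parts of BON-1, or 28.6% in place of 16.7% of the mixed cells, a 1.71-fold larger share. Of 54261 genes in the table, 12842 were tested, those whose FPKM was 1 or more in 3 or more of the 6 libraries. FPKM is a fragment count scaled to the length of the gene and the depth of the library. At the edge of this filter, 326 genes reached that value in exactly 3 libraries and 392 genes in exactly 2, and the latter were not tested.

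BON-1 is an established human line from a pancreatic neuroendocrine tumour, and CAFs is taken here to stand for cancer-associated fibroblasts. The groups that enter this account are BON-1 alone, with no CAFs, and the co-cultures at 10:2, 10:4 and 10:6, with 3 libraries each and no treatment, genotype or time named in the labels. According to the labels, BON-1 cells were separated from the co-culture by flow cytometry, lysed in Trizol, and sequenced from polyA-selected RNA. The sources used here do not state where the CAFs came from, how long the co-culture lasted, the marker and purity of the sort, or whether BON-1 cells grown alone were sorted too.

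Fibroblasts in tumours build the extracellular matrix: they secrete fibrillar collagens and matricellular proteins, and in their activated, contractile state they make smooth muscle actin and its partner proteins. They also signal to tumour cells through growth factors such as TGF-beta. Neuroendocrine tumour cells store peptide hormones and amines in dense-core granules, which are rich in granins such as chromogranin A, and they make little fibrillar collagen.

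The 6 libraries held 11703624 to 14216450 assigned reads, 11703624 to 13519681 at 10:2 and 12604134 to 14216450 at 10:4. Over all 12 libraries the range was 11703624 to 21882537. Counting noise did not account for the differences within a group (chi-square per degree of freedom 2.14 to 4.07 in these 2 groups), so each library was counted as a sample. The labels do not tell whether libraries stem from separate cultures, so the p-values below measure only the spread between libraries, which may be technical. None of the 6 libraries stood apart by its depth. Among all 12, BON-1 alone replicate 2 did, with 21882537 reads against 16757991 in the next deepest. The libraries also differed in how their values ran with GC content, which is given with the results it touches.

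The labelled cell type was checked against its markers. The 9 neuroendocrine markers summed to 2761 to 2796 FPKM at 10:2 and to 2787 to 2855 at 10:4, and the 4 epithelial markers (EPCAM, KRT8, KRT18 and CDH1) to 3900 to 4031 and 3960 to 4148. The 14 fibroblast markers summed to far less, but to more in 10:4: 67.1 to 69.7 FPKM at 10:2 and 141.9 to 144.7 at 10:4. In BON-1 alone the same sum was 35.1 to 37.9, and at 10:6 it was 209.0 to 211.9. Of the 14, 5 had a mean below 1 FPKM over the 6 libraries, namely LUM, DCN, POSTN, PDGFRB and FAP, and FAP stayed below 0.1 in each of them. The leukocyte markers PTPRC and CD3E had no read in any of the 6 libraries, and the endothelial markers PECAM1 and VWF had means below 1 FPKM. CD68 was at 6.13 and 6.997 FPKM and CDH5 at 27.9 and 28.3, with 6.42 and 28.8 in BON-1 alone. The sums of the 5 leukocyte markers were 5.70 to 6.87 and 6.69 to 7.60 FPKM, and those of the 3 endothelial markers 27.1 to 29.5 and 27.45 to 28.95. The labels therefore match an epithelial, neuroendocrine cell population. Whether the fibroblast transcripts came from CAFs that passed the sort or from BON-1 cells was not tested, and this holds for every fibroblast gene below. In bulk RNA more cells of a type cannot be told apart from more RNA per cell.

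Between 10:2 and 10:4, 408 of 12842 genes passed an adjusted p of 0.05 in limma (3.18%). Of these, 347 were higher at 10:4 (2.7%) and 61 were lower (0.475%). On the scale of log2(FPKM + 1), 5 called protein-coding genes differed at least 2-fold, ACTA2, IGFBP7, COL3A1, SPARC and COL1A1, and all 5 were higher. By the ratio of mean FPKM there were 14 such genes, all higher. The 330 rises outside the fibroblast lists had a median log2 difference of 0.30, with 8 of them at least 2-fold on the log2(FPKM + 1) scale, none of these protein-coding. The 61 falls had a median size of 0.18. Among all tested genes the median log2 difference was 0.00, so the groups were centred on each other. Log2 differences are on that scale throughout, which understates the change of genes with low values, and the limma tests are two-sided.

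These counts depend on the libraries and on the fit. The spread was estimated from all 12 libraries in 4 groups, and with the 6 libraries alone 46 genes passed (0.358%), 41 higher (0.319%) and 5 lower (0.0389%). All 41 of these rises and 2 of the 5 falls were among the calls above. When the recovered reads were tested with limma-voom, 838 genes were higher (6.53%) and 214 lower (1.67%). The share of calls that were higher was 85.05%, and 76.81% after median-of-ratios rescaling or 74.77% after quantile normalisation. By position alone, all 3 libraries of 10:4 lay above all 3 of 10:2 in 1893 genes (14.7%) and below them in 1180 (9.19%). Without 10:4 replicate 2, 47 genes passed, and without 10:2 replicate 2, 70 passed. Without 10:2 replicate 1, 10:2 replicate 3 or 10:4 replicate 3, the counts were 250, 260 and 267.

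Type I and type III collagen, the main fibrillar collagens of connective tissue, roughly doubled in level. COL1A1, the alpha-1 chain of type I collagen, stood at 17.9, 18.4 and 17.9 FPKM in the 3 libraries of 10:2 and at 37.8, 36.0 and 38.5 in those of 10:4. The lowest library of 10:4 was well above the highest of 10:2. The rise was 1.01 on the log2 scale (SE 0.034, limma adjusted p = 2.82e-08), the smallest SE among the 17 fibroblast genes that passed. COL1A2, which encodes the other chain of the same collagen, went from 9.08, 9.40 and 8.54 FPKM to 18.6, 19.0 and 19.3 (log2 difference 1.00, SE 0.067, limma adjusted p = 1.56e-05). COL3A1, the chain of type III collagen, was at 3.21, 3.54 and 3.93 FPKM and rose to 8.32, 8.96 and 8.498 (log2 difference 1.08, SE 0.064, limma adjusted p = 4.83e-06). The ratios of mean levels were 2.07, 2.103 and 2.41 in the same order, and in none of the 3 did the groups overlap.

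A stretch of coding sequence shows what COL1A1 reads were counted on, and gives the base composition that matters further on. COL1A1 lies on the minus strand of chr17:50183289-50201632 in GENCODE 29, build GRCh38. The 120 bases are from the middle of the coding sequence, bases 2137 to 2256 of 4392, 5′ to 3′, with G and C in capitals.
COL1A1: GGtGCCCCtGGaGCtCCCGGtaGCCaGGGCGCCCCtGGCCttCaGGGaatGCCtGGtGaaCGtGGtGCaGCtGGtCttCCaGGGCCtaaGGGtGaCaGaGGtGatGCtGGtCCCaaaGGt
In this stretch, 14 of its 40 codons are glycine codons and they fill 14 of 14 positions at a spacing of 3 codons, the repeat of glycine and 2 other residues that lets collagen chains wind into a triple helix. G and C make up 65.0% of it.

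The lower-level collagens moved with them. COL5A1 (type V) rose from 1.15 ± 0.0985 to 2.53 ± 0.234 FPKM (mean ± SD, n = 3 here and below), COL5A2 from 0.721 ± 0.149 to 1.49 ± 0.0322, COL6A2 (type VI) from 5.67 ± 0.541 to 8.23 ± 0.529 and COL6A3 from 1.92 ± 0.287 to 3.69 ± 0.288. COL6A1, which pairs with COL6A2 and COL6A3 in type VI collagen, was at 22.8 ± 0.237 and 22.9 ± 1.33 FPKM and did not pass the test (log2 difference 0.00, limma adjusted p = 0.988). COL6A1 was already at 22.4 ± 0.843 FPKM in BON-1 alone, far above the other 2 chains. Of the 8 tested collagens, 7 rose (87.5%, against 2.7% of all tested genes) and none fell. COL5A2 is among the 7 and passed the filter only through 10:4, the group where it was high. COL12A1 and COL8A1 were too low to be tested.

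ACTA2, the smooth muscle actin that marks contractile fibroblasts, showed the largest rise of any protein-coding gene on the log2(FPKM + 1) scale, while by the ratio of means THY1 stood slightly higher (2.51 against 2.496). Its levels were 10.6, 11.6 and 11.02 FPKM at 10:2 and 28.1, 26.9 and 27.8 at 10:4. The difference was 1.247 on the log2 scale (SE 0.054, limma adjusted p = 2.32e-07), with a clear gap between the groups. TAGLN, an actin-binding protein of smooth muscle and myofibroblasts, rose from 9.05, 10.0 and 10.1 to 18.1, 17.9 and 15.4 FPKM (log2 difference 0.76, limma adjusted p = 0.00072). MYL9, a regulatory light chain of myosin, rose from 3.03 ± 0.275 to 6.23 ± 0.504 FPKM, and CALD1, caldesmon, from 4.14 ± 0.261 to 6.08 ± 0.514. Of 10 tested contractile genes, these 4 rose (40%, against 2.7% of all tested genes) and none fell. The 6 others include 4 that stood high in BON-1 alone as well, at 66.9 FPKM or more: TPM1 was at 77.1 and 79.9 FPKM, TPM2 at 108.7 and 106.7, CNN2 at 104.7 and 104.2, and TAGLN2 at 429 and 408 at 10:2 and 10:4.

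Among 18 tested matricellular and surface genes, 6 rose (33.3%, against 2.7% of all tested genes) and none fell. THY1 and THBS2 are among the 6 and passed the filter only through 10:4, the group where they were high. SPARC, a collagen-binding matrix glycoprotein, was at 10.0, 10.0 and 9.88 FPKM at 10:2 and at 20.5, 23.5 and 21.5 at 10:4 (log2 difference 1.05, SE 0.059, limma adjusted p = 3.19e-06). IGFBP7, a secreted binding protein of insulin-like growth factors, varied more: 5.52, 3.60 and 4.56 FPKM against 12.2, 10.96 and 9.83 (log2 difference 1.12, SE 0.12, limma adjusted p = 0.000824). The spread within both groups was about 1 FPKM, and the gap between them was larger. THY1, a surface glycoprotein of fibroblasts, rose from 0.847 ± 0.111 to 2.13 ± 0.177 FPKM, and THBS2, a thrombospondin, from 0.515 ± 0.0332 to 1.18 ± 0.198. LOXL2, which cross-links collagen, rose from 2.41 ± 0.357 to 3.88 ± 0.228. FN1, fibronectin, was already at 21.7 ± 0.589 FPKM in BON-1 alone and rose from 25.1 ± 0.551 to 31.6 ± 1.94.

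Other members of the same lists, which epithelial tumour cells can express too, did not pass the test: VIM was at 76.1 and 81.1 FPKM (limma adjusted p = 0.0834), TIMP1 at 86.9 and 92.4, SERPINH1 at 117.6 and 120.3, MMP2 at 15.4 and 16.0, and S100A4 at 2117 and 2200. PDGFRA, a receptor of fibroblasts, had overlapping groups at 2.91 and 3.47 FPKM. Over the 3 fibroblast lists together, 17 of 36 tested genes rose and none fell, against 2.7% and 0.475% of all tested genes, and the median log2 difference was 0.25 against 0.00. With the 6 libraries alone 11 rose. Without 10:4 replicate 2 it was 13, in a fit where THY1, THBS2 and COL5A2 were not tested. THY1, THBS2 and COL5A2 reached FPKM 1 in the libraries of 10:4 alone and so passed the filter only through the group where they were high, as did 48 genes in all, of which 12 were called. Without these 3 genes, 14 of 33 fibroblast genes rose. The other 11 of the 47 genes in the lists were too low to be tested. The plot of the called fibroblast genes by library shows these groups.

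**Figure D1:**
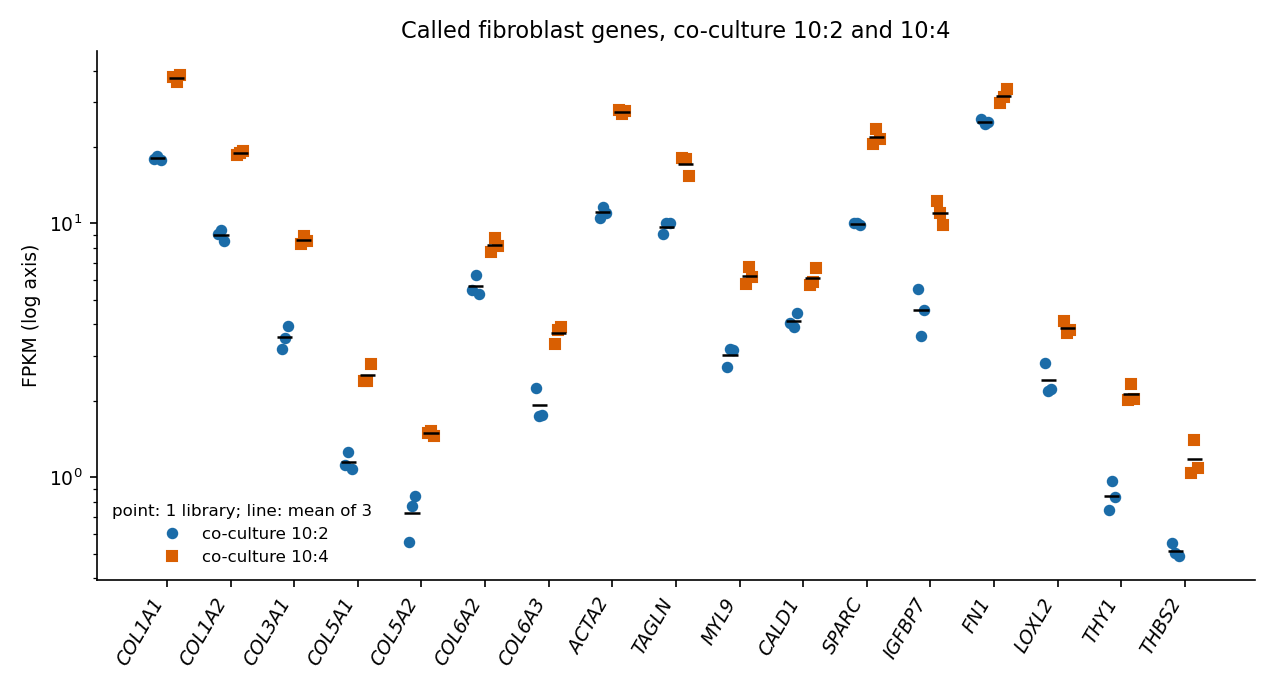
FPKM on a log axis of the 17 called fibroblast genes, 1 point per library (circles 10:2, squares 10:4) and a line at each mean of 3. In each of the 17 genes the 3 points of 10:4 lie above the 3 of 10:2, from COL1A1 at 18.0 and 37.4 FPKM to THBS2 at 0.515 and 1.18.

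For the fibroblast genes, levels at 10:4 were compared with the size of the CAF share. The ratio of mean levels, 10:4 over 10:2, was 1.26 to 2.51 over the 17 called genes, with a median of 2.07. BON-1 alone has a level of its own for each gene. Once that mean was subtracted, the ratio was 2.44 to 5.84, with a median of 3.42. The error was wide for several of the genes, such as LOXL2 (5.80, SE 3.99), COL6A2 (5.14, SE 3.51) and IGFBP7 (4.83, SE 1.67). For COL1A1 the excess over BON-1 alone was 8.82 FPKM at 10:2 and 28.2 at 10:4, a ratio of 3.20 (SE 0.105). For ACTA2 it was 5.05 and 21.6, a ratio of 4.27 (SE 0.325), and for SPARC 4.94 and 16.8, a ratio of 3.40 (SE 0.225). The number of CAFs per BON-1 cell at seeding differed by a factor of 2 and the CAF share of the cells by 1.71. The excess ratio minus 2 SE was above 2 in 10 of the 17 genes. In the other 7 it was not, namely COL5A2, COL6A2, COL6A3, CALD1, FN1, IGFBP7 and LOXL2. The 17 genes were chosen by their rise between these libraries, so these ratios describe them and carry no test. THY1, THBS2 and COL5A2 are among them and passed the filter only through 10:4. THY1 has the highest value of both ratios (2.51 and 5.84). At 10:6, where the CAF parts are 1.5 times those of 10:4, the same excess was 0.914 to 2.04 times that of 10:4, with a median of 1.56. These ratios share the libraries of 10:4 and of BON-1 alone.

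TGFBI, a matrix protein induced by TGF-beta that BON-1 also makes, rose without belonging to the fibroblast lists. It was at 52.1, 51.3 and 51.4 FPKM at 10:2 and at 61.5, 65.1 and 63.6 at 10:4 (log2 difference 0.29, SE 0.031, limma adjusted p = 0.000824). The 3 libraries of 10:2 were within 1 FPKM of each other and all lay below those of 10:4. BON-1 alone had 48.4 ± 0.755 FPKM and 10:6 had 70.4 ± 1.76. It was the only called gene of 16 tested TGF-beta response genes (6.25%, against 2.7% of all tested genes called higher), so that share rests on 1 gene. Of 7 tested genes of the mesenchymal transition, TGFBI and FN1 rose (28.6%), and both are counted in another list as well.

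The larger set of rises, 330 genes, lay outside the fibroblast lists. Of 41 tested mitotic genes 11 rose (26.8%, against 2.7% of all tested genes) and none fell (0.475% of all). With trends on gene length and GC content removed 3 of the 41 rose, and with the 6 libraries alone 2. TOP2A, the topoisomerase that untangles chromosomes before division, was at 13.4, 12.2 and 13.7 FPKM at 10:2 and at 18.2, 20.8 and 18.9 at 10:4 (log2 difference 0.52, SE 0.063, limma adjusted p = 0.00208). CENPF, a kinetochore protein, went from 2.66, 2.11 and 1.95 to 3.96, 4.25 and 4.14 FPKM (log2 difference 0.66, SE 0.079, limma adjusted p = 0.00193). In both genes all libraries of 10:4 were above all libraries of 10:2. ANLN and ECT2, which act in cytokinesis, and NCAPG, SMC2 and SMC4 of condensin rose too, as did KIF11, ASPM, HMMR and CDK1. SMC3, a subunit of cohesin that holds sister chromatids together, rose from 8.77, 7.21 and 7.98 FPKM to 11.7, 13.5 and 11.5 (log2 difference 0.56, limma adjusted p = 0.00301).

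Of 43 tested DNA replication genes 1 rose and 2 fell, shares near those of all tested genes (2.33% against 2.7%) or resting on 2 genes (4.65% against 0.475%), and with trends removed or with the 6 libraries alone none passed. PRIM1, a primase subunit, rose from 15.2 to 18.1 FPKM, while MCM2 of the replicative helicase fell from 74.7 ± 0.869 to 67.0 ± 2.06 and POLE, the leading-strand polymerase, from 14.8 to 12.8. The median log2 difference was 0.01 in the replication list and 0.12 in the mitotic list, and the median GC content of their transcripts was 47.5% and 42.3%.

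Of 49 tested nuclear pore and transport genes, 7 rose (14.3%, against 2.7% of all tested genes) and none fell. With trends removed, and with the 6 libraries alone, it was 1 of the 49. RANBP2, a nucleoporin on the cytoplasmic face of the pore, went from 9.09, 8.67 and 8.84 FPKM to 11.7, 13.9 and 13.9 (log2 difference 0.52, SE 0.065, limma adjusted p = 0.00246). RANBP2 has closely related gene copies, so its reads may be shared with them. The nucleoporin TPR rose from 2.32 to 3.44 FPKM, and the import or export receptors TNPO1, IPO7, IPO11, CSE1L and XPO1 rose by 0.26 to 0.34 on the log2 scale. Among 29 tested kinesins, the motor proteins of microtubules, 3 rose (10.3%), and 1 with trends removed or with the 6 libraries alone. KIF5B, which carries cargo towards the cell periphery, was at 11.9, 11.5 and 12.4 FPKM and rose to 16.7, 18.0 and 17.9 (log2 difference 0.52, SE 0.062, limma adjusted p = 0.00199). KIF11 and KIF21A were the others. STXBP3, which binds syntaxins in vesicle fusion, rose from 3.28 ± 0.198 to 5.17 ± 0.351 FPKM.

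Of 20 tested aminoacyl-tRNA synthetases, the enzymes that charge tRNAs with amino acids, 4 rose (20%, against 2.7% of all), 3 with trends removed and 1 with the 6 libraries alone. EPRS, for glutamate and proline, went from 18.6, 19.5 and 20.2 FPKM to 23.9, 26.2 and 25.04 (log2 difference 0.35, SE 0.044, limma adjusted p = 0.00246). TARS rose from 73.9 ± 4.08 to 89.4 ± 1.81, NARS from 49.1 ± 1.55 to 58.5 ± 1.29, and LARS from 12.4 ± 0.248 to 15.03 ± 0.775. The list as a whole did not shift, with a median log2 difference of -0.01 and 9 of 20 genes positive. Of 31 tested heat shock and chaperonin genes, 8 rose (25.8%, against 2.7% of all), 2 with trends removed and 1 with the 6 libraries alone. The most abundant were HSPD1, the mitochondrial chaperonin, from 396 ± 7.36 to 450 ± 7.65 FPKM, and HSP90AA1, a cytosolic HSP90, from 253 ± 9.83 to 298 ± 7.89. HSP90B1, CCT8, CCT6A, HSPH1, DNAJA1 and HSPA4 made up the rest. Genes of the unfolded protein response and ATF4 pathway did not pass the test in either direction (0 of 30), with ATF4 itself at 476 and 472 FPKM and the chaperone CALR at 471 and 460.

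Among splicing factors, SF3B1, a core component of the U2 particle, rose from 33.0, 32.3 and 32.8 FPKM to 40.5, 41.1 and 39.0 (log2 difference 0.29, SE 0.031, limma adjusted p = 0.00102), a gap many times the spread within groups. HNRNPA1 and HNRNPA2B1 rose too. SNRNP200, the helicase that unwinds the U4 and U6 RNAs, fell from 77.2, 77.3 and 75.7 to 65.6, 68.8 and 72.2 FPKM, PRPF8 from 69.4 to 61.9 and SRSF4 from 28.5 to 25.7. The whole list had 4 rises and 3 falls among 52 tested (7.69% and 5.77%, against 2.7% and 0.475% of all tested genes). With trends removed it had 1 and 3, where 0.631% and 0.282% of all genes passed, and with the 6 libraries alone 1 and 0.

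Of the granins, the packing proteins of neuroendocrine granules, SCG2 rose and CHGA fell. SCG2, secretogranin II, was at 1149, 1097 and 1164 FPKM at 10:2 and at 1280, 1363 and 1279 at 10:4 (log2 difference 0.20, SE 0.030, limma adjusted p = 0.00784). CHGA, chromogranin A, was at 1160, 1175 and 1128 FPKM and fell to 1042, 1001 and 1021 (log2 difference -0.18, SE 0.032, limma adjusted p = 0.0165). Neither pair of groups overlapped. CHGB, chromogranin B, was at 256 ± 2.26 and 256 ± 5.49 FPKM (limma adjusted p = 0.973). Of 21 tested neuroendocrine genes these were the only 2 that passed, and SYP, ENO2, PCSK1 and CPE did not. That is 4.76% in each direction, resting on 1 gene each, against 2.7% higher and 0.475% lower of all tested genes. With the 6 libraries alone neither SCG2 nor CHGA passed (limma adjusted p = 0.0893 and 0.0836). TPH1, which starts serotonin synthesis, was too low to be tested, with 4 reads in the 3 libraries of 10:2 and 10 in those of 10:4. Neither the 10 tested peptide hormones and secreted carriers nor the 3 somatostatin receptors had a called gene. At the shares over all tested genes, that says little about so few genes. Neurotensin (NTS) was at 112 ± 8.60 and 123 ± 5.57 FPKM, and SSTR5 and SSTR2 were at 29.9 and 28.9 and at 7.83 and 7.15. CGA, the alpha chain of glycoprotein hormones, ranged from 65.5 to 159.7 FPKM within 10:2 and from 124.1 to 148.2 within 10:4, and its groups overlapped (limma adjusted p = 0.739).

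Falls were few and small. The 10 largest among protein-coding genes above 5 FPKM whose groups did not overlap lay between -0.29 and -0.21 on the log2 scale. TRUB2, a mitochondrial pseudouridine synthase, fell from 33.0, 37.3 and 31.9 FPKM to 28.0, 27.3 and 27.6 (limma adjusted p = 0.0193). LENG8 fell from 16.7 ± 0.612 to 13.9 ± 0.645, DGAT2, which makes triglycerides, from 10.7 ± 0.0998 to 8.92 ± 0.540, and BDKRB1, a bradykinin receptor, from 6.03 ± 0.316 to 4.96 ± 0.149. Among secreted signals, INHBB, the activin B subunit, fell from 44.3, 44.0 and 45.5 FPKM to 41.5, 36.3 and 36.7 (limma adjusted p = 0.0266). IHH, Indian hedgehog, fell from 40.4, 43.1 and 37.2 to 33.8, 34.5 and 34.9 (limma adjusted p = 0.0491). The gaps between the groups were narrow in these 2 genes compared with the collagens. ARNT2, CLCN7, NXF1 and MOCS3 complete the 10. FOS, an immediate early transcription factor, fell from 205 ± 2.16 to 188 ± 5.70 FPKM. It was the only call among 23 immediate early genes (4.35%, against 0.475% of all tested genes called lower). FASN, fatty acid synthase, fell from 108.5 to 98.4 FPKM, 1 of 35 sterol and fatty acid genes (2.86%). Both shares rest on 1 gene. With the 6 libraries alone none of these falls passed.

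Several lists had no called gene, which at 2.7% and 0.475% of all tested genes says little about lists of this size: interferon-stimulated genes (0 of 17), YAP and TEAD targets (0 of 18), p53 targets (0 of 22), the proteasome (0 of 34), clustered histones (0 of 15) and epithelial genes (0 of 19). ISG15 was at 169 ± 9.56 and 179 ± 8.94 FPKM, GADD45A at 89.5 ± 2.89 and 88.6 ± 1.93, KRT8 at 2145 ± 58.2 and 2132 ± 71.5, and PSMA7 at 516 ± 9.07 and 495 ± 18.7. EPCAM came closest among the epithelial genes, at 332 to 349 and 357 to 375 FPKM (limma adjusted p = 0.0631). A p above the threshold does not show that these levels were equal. A single gene passed in the hypoxia list, HIF1A, from 8.16 to 10.5 FPKM (3.23% of 31, higher). IHH was the single call of the hedgehog, WNT and NOTCH list (3.85% of 26, lower). UQCRB and NDUFB5 rose among 52 oxidative phosphorylation genes (3.85%). The mitochondrial ribosomal RNA genes RNR1 and RNR2 rose among 15 mitochondrially encoded genes (13.3%), from 789 ± 13.8 to 899 ± 12.3 and from 2494 ± 125 to 2788 ± 88.7 FPKM. RPL7, RPL6 and RPL24 rose among 74 cytosolic ribosomal protein genes (4.05%), where near-identical processed copies can share reads. Among 32 chromatin remodellers and driver genes, CHD1 and BAZ1A rose (6.25%) and SMARCA4 fell from 57.3 to 51.7 FPKM (3.12%). These shares stand against 2.7% higher and 0.475% lower of all tested genes, and each rests on 1 to 3 genes. With the 6 libraries alone these lists had no call. With trends removed the ribosomal list had 1 rise and 1 fall, and the mitochondrially encoded genes were not tested. The other lists then had no call. The chart of calls by list sets these shares against those of all tested genes.

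**Figure D2:**
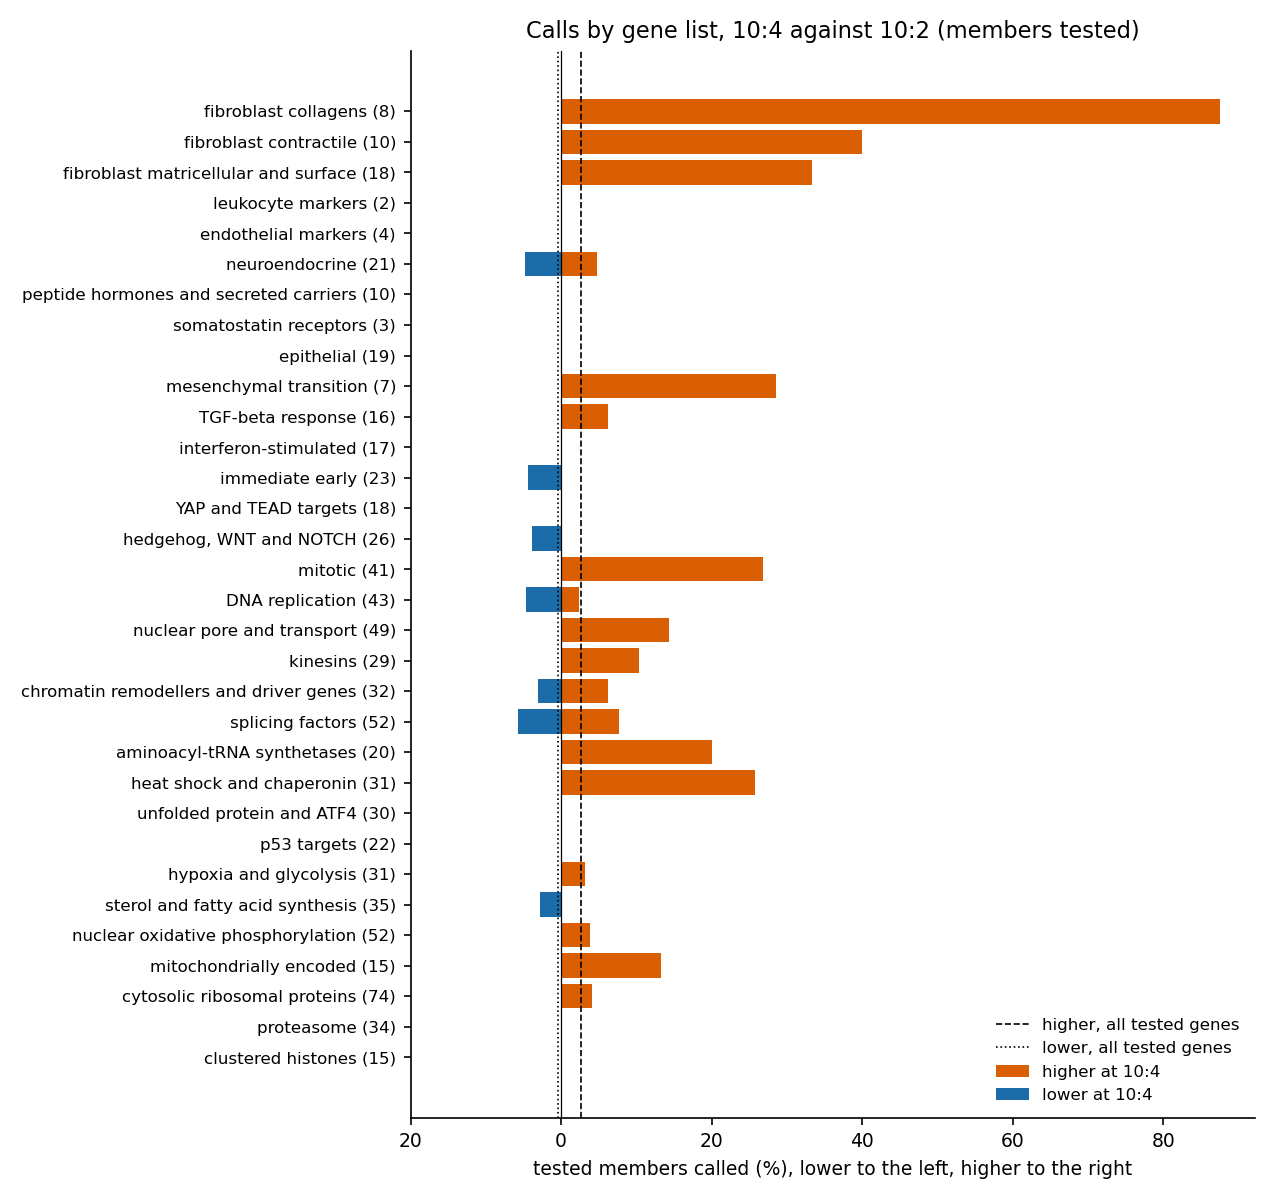
Share of the tested members of each of the 32 gene lists called higher (right) or lower (left) at 10:4, in percent, with the number tested in parentheses and broken lines at the shares over all tested genes (2.7% higher, 0.475% lower). The collagens stand at 87.5%, with COL5A2 tested only through its level at 10:4. The mitotic genes stand at 26.8%, and 11 lists have no call.

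The rises outside the fibroblast lists shared a base composition. Their transcripts had a median GC content of 40.05% (330 genes, 323 with a known value), against 49.67% over all tested genes, 52.14% for the 17 called fibroblast genes and 56.95% for the 61 falls. In 5 bins of equal size by GC content, 9.37% of the genes in the most AT-rich bin were called higher and 0.0415% lower. In the most GC-rich bin, 0.415% were called higher and 0.954% lower. Across 12052 genes the log2 difference correlated with GC content (Spearman's rho -0.516), a description over genes that share libraries and are not independent replicates.

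Sequences from 2 rises and 2 falls show the contrast. SMC3 lies at chr10:110567691-110604636 on the plus strand, KIF5B at chr10:32009010-32056431 on the minus strand, CHGA at chr14:92923080-92935293 on the plus strand and IHH at chr2:219054420-219060467 on the minus strand (GENCODE 29, GRCh38). The 120 bases again come from the middle of the coding sequence, bases 1766 to 1885 of 3651 for SMC3, 1385 to 1504 of 2889 for KIF5B, 626 to 745 of 1371 for CHGA and 557 to 676 of 1233 for IHH, with G and C in capitals.
SMC3: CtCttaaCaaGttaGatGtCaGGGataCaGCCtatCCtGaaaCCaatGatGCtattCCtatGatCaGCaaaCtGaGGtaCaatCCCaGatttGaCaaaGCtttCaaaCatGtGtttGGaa
KIF5B: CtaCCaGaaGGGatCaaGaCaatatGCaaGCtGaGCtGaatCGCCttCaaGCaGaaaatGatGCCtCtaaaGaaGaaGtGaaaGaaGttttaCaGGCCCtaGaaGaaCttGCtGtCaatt
CHGA: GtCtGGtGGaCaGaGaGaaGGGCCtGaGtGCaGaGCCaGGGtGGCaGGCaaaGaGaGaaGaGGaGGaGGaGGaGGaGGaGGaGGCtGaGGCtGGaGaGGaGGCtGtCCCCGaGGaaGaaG
IHH: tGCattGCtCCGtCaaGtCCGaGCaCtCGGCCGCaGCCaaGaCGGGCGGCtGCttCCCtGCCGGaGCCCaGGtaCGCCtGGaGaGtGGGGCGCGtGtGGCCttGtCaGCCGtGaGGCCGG
G and C make up 39.2% and 41.7% of the first 2 stretches and 62.5% and 70.0% of the last 2. Over the whole longest transcript the values are 38.9%, 39.1%, 62.4% and 62.6%.

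The same dependence differed between libraries of 1 group. For each library, Spearman's rho between GC content and its deviation from the mean of all 12 was -0.116, 0.254 and -0.224 in the 3 libraries of 10:2 and -0.412, -0.592 and -0.471 in those of 10:4. It was 0.672 to 0.705 in BON-1 alone and -0.603 to -0.286 at 10:6. The highest library of 10:2 and the lowest of 10:4 are both replicate 2, the libraries without which 70 and 47 genes passed.

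**Figure D3:**
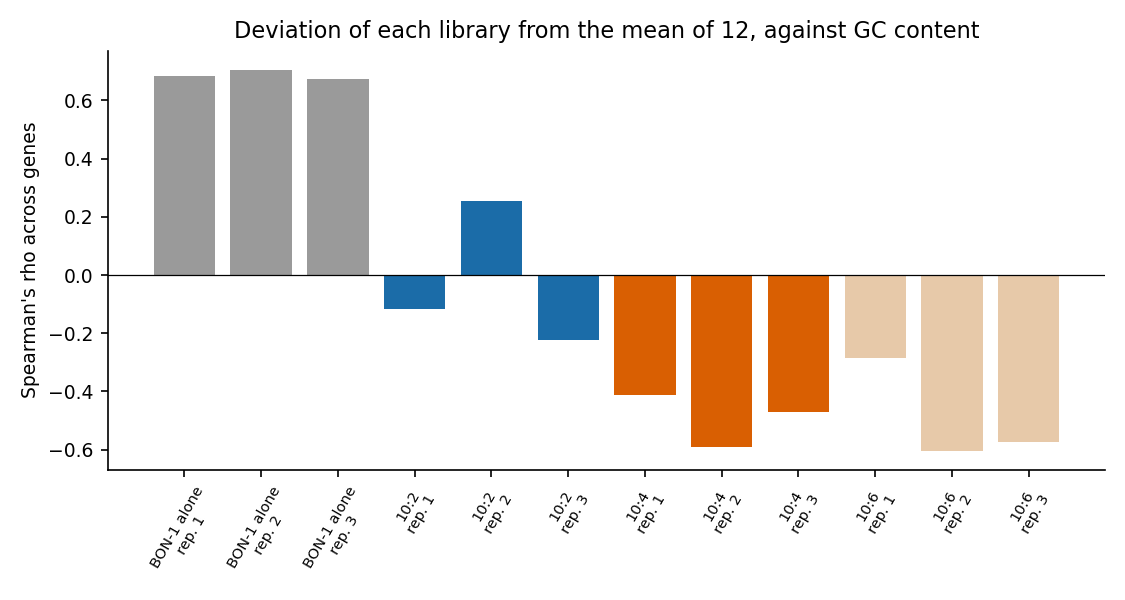
Spearman's rho across 12052 genes between GC content and the deviation of each library's log2(FPKM + 1) from the mean of the 12 libraries, 1 bar per library. The 3 bars of 10:2 lie between -0.224 and 0.254, the 3 of 10:4 between -0.592 and -0.412.

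Calls were therefore also made after a smooth trend of each library on gene length and GC content was taken out, which was possible for 12052 of the tested genes (93.85%). In that fit 110 genes passed (0.913%), 76 higher (0.631%) and 34 lower (0.282%). It kept 70 of the 347 rises (20.2%) and 13 of the 61 falls (21.3%). All 17 fibroblast genes were among the 70, with COL1A1 at 1.06, ACTA2 at 1.26 and SPARC at 1.06 on the log2 scale. Of the mitotic rises TOP2A, CENPF and SMC4 remained, of the nuclear transport rises RANBP2, of the kinesins KIF5B, of the tRNA synthetases EPRS, TARS and NARS, and of the chaperones HSP90AA1 and HSPD1. SMC3, SF3B1, STXBP3, TGFBI, SCG2, CHGA, SNRNP200, SRSF4, TRUB2, LENG8 and MOCS3 also passed, while IHH, INHBB, FOS, FASN, MCM2, DGAT2 and BDKRB1 did not. The log2 difference of SMC3 went from 0.56 to 0.41 and that of TOP2A from 0.52 to 0.37. SCG2 moved from 0.20 to 0.11 and CHGA from -0.18 to -0.14. Whether the dependence on GC content arose in the cells or in the libraries was not tested.

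**Figure D4:**
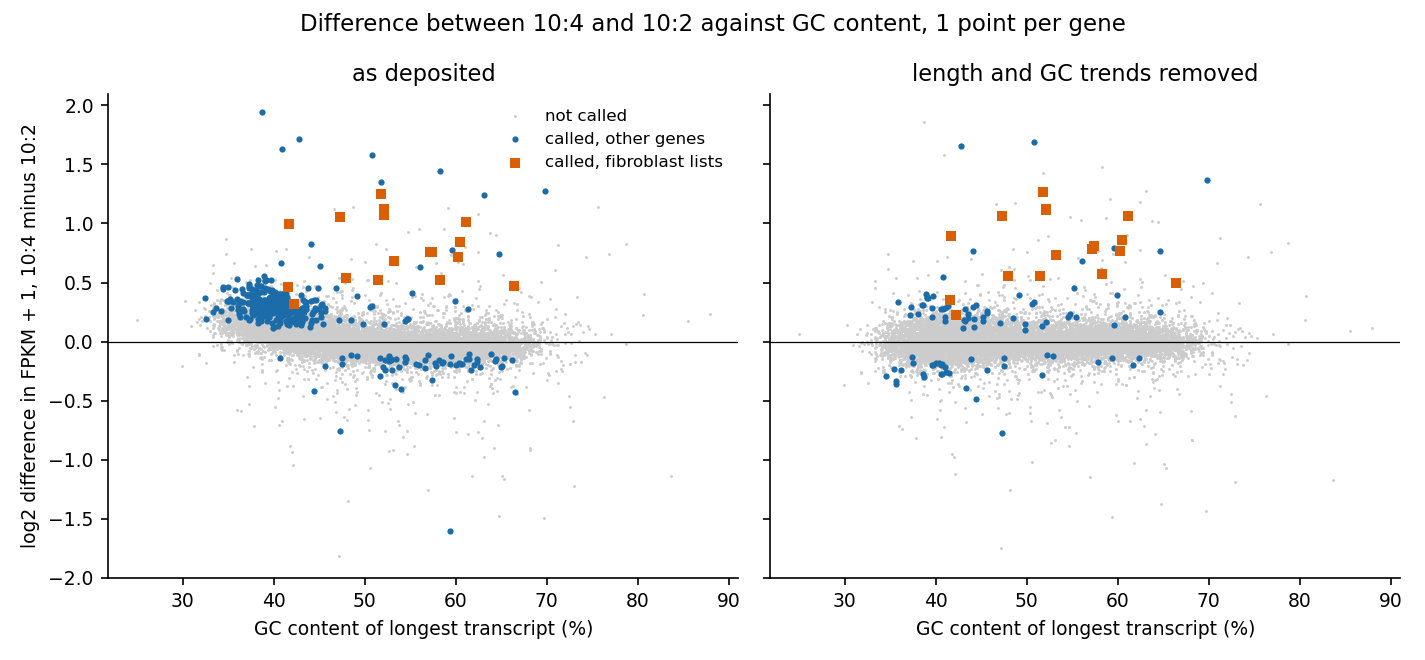
Log2 difference of FPKM + 1, 10:4 minus 10:2, against the GC content of each gene's longest transcript, as deposited (left) and with length and GC trends removed (right), 1 point per gene with squares for called fibroblast genes. On the left the called genes crowd at the AT-rich end, with 226 of the rises in the lowest of 5 bins, and on the right 21 rises and 20 falls lie there while the 17 fibroblast squares remain.

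The levels in the other 2 groups placed the genes apart. By mean level, the 17 fibroblast genes stood in the order of the CAF number in all 4 groups, except CALD1. CALD1 was at 6.08 FPKM at 10:4 and 5.80 at 10:6, less than 2 SD of the wider group apart, so that step was not set apart. For COL6A2, LOXL2 and IGFBP7 the levels in BON-1 alone and at 10:2 differ by less than 2 SD of the wider group. These 2 groups were not set apart in them, as in COL6A2 with 5.05 ± 0.599 and 5.67 ± 0.541 FPKM. The 17 were chosen by the step from 10:2 to 10:4. COL1A1 was at 9.22 ± 0.148 FPKM in BON-1 alone, 18.0 ± 0.273 at 10:2, 37.4 ± 1.31 at 10:4 and 54.4 ± 0.794 at 10:6. Several of the AT-rich rises instead had their highest mean at 10:4. TOP2A was at 6.91 ± 0.454, 13.1 ± 0.794, 19.3 ± 1.32 and 14.7 ± 0.705 FPKM in the same order, and KIF5B at 6.63 ± 0.255, 11.9 ± 0.420, 17.6 ± 0.741 and 11.97 ± 1.13. RANBP2 was at 4.71 ± 0.182, 8.87 ± 0.211, 13.2 ± 1.31 and 8.37 ± 0.381. For KIF5B and RANBP2 the levels at 10:2 and 10:6 differ by less than 2 SD of the wider group, so these neighbours in the order were not set apart. SCG2 and TGFBI stood in the order of the CAF number, SCG2 at 747 ± 5.35, 1137 ± 34.9, 1308 ± 48.3 and 1400.5 ± 7.84 FPKM. CHGA stood in the reverse order, at 1347 ± 25.9, 1154 ± 24.2, 1021 ± 20.5 and 975 ± 39.2. For SCG2 and CHGA the levels at 10:4 and 10:6 differ by less than 2 SD of the wider group, so that step was not set apart. These side-by-side levels use the libraries of 10:2 and 10:4 again and carry no test of their own.

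**Figure D5:**
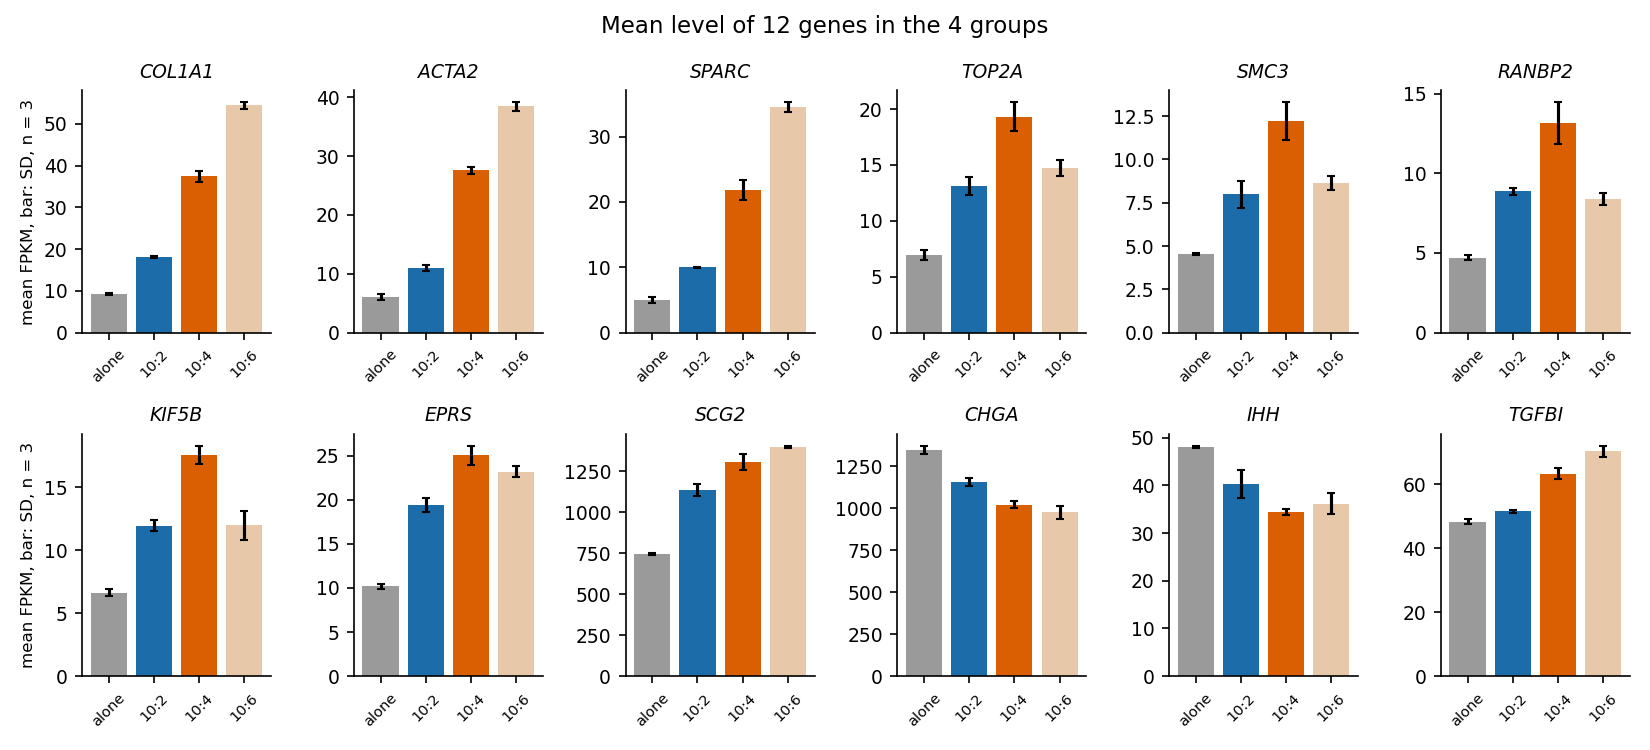
Mean FPKM (bars, SD of 3 libraries as error bars) of 12 genes in BON-1 alone and in the co-cultures at 10:2, 10:4 and 10:6, each panel with its own axis from 0. COL1A1, ACTA2, SPARC, SCG2 and TGFBI go up from group to group, CHGA goes down, and TOP2A, SMC3, RANBP2, KIF5B and EPRS have their highest mean at 10:4. For EPRS, SCG2 and CHGA the levels at 10:4 and 10:6 differ by less than 2 SD of the wider group.

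The calls were looked up in the contrast of 10:6 against BON-1 alone in the same fit. Its 6 libraries are not in the means compared above, but they shared in the estimate of the spread behind the calls, so they are not independent of them. Of the 347 rises, 340 had the same direction there and 329 passed in that direction, where 30.4% of all tested genes were called higher, and 3 passed in the opposite one. Of the 61 falls, 57 had the same direction and 51 passed in it, where 19% of all genes were called lower. After removal of the length and GC trends, 61 of the 76 rises passed again in the same direction, against 11.7% of all genes, and 31 of the 34 falls, against 14%. GC content ran with that comparison as well, with a rho of -0.734 over the same 12052 genes, and its part in the shared directions was not tested. Co-culture itself also sets these 2 groups apart.

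Genes other than protein-coding ones made up 19 of the 347 rises and 4 of the 61 falls, counting those with no known kind. They took 10 of the 26 rises of at least 1.5-fold and all 3 such falls. Of all 12842 tested genes, 10934 were protein-coding. Genes of other kinds made up 121 of the 139 tested genes that differed at least 1.5-fold, called or not. Many rest on few reads: SNORA4, a small nucleolar RNA, had 6, 1 and 3 reads at 10:2 and 12, 15 and 16 at 10:4, and RN7SK, a regulator of transcription elongation, had 13, 3 and 19 against 36, 37 and 36. Short RNAs without a polyA tail are poorly captured by polyA selection, and these 2 were named after their values were seen.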

How the data were processed

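RNA sequencing of 12 libraries was analysed from 1 table of FPKM values for 54261 genes, deposited by the authors. Per the submitters' processing notes, the tools named are HISAT2 and featureCounts and the build is hg38. Versions and settings, strand included: not given in the sources used here, so overlapping antisense genes cannot be told apart. The code in each column name matched 1 title, and no column was left over. Depths were taken from the FPKM step of 1 read in short genes of known length. With these depths and a length sought for each gene, whole reads were recovered for 99.9738% of 267349 nonzero values (within 1e-06 of a read). Depth limits genes of low level, which were filtered at FPKM 1.

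Values were taken as log2(FPKM + 1), a pseudocount of 1, and were fitted with limma 3.58.1 in R 4.3.3. The model had a mean for each of the 4 groups and took all 12 libraries (8 residual degrees of freedom) with a variance trend. The contrast was 10:4 minus 10:2, with Benjamini-Hochberg adjustment over 12842 genes and a threshold of 0.05. The script was tested on simulated data. GC content came from the longest GENCODE 29 transcript. Members and gene lists were chosen with earlier results of these data known. Genes named are the 15 largest rises and 10 largest falls among protein-coding calls with a mean of 5 FPKM or more on the higher side whose groups did not overlap, up to 4 calls with the smallest p in each of 32 lists (with fewer than 2 calls, also the 2 most abundant genes), and the tested cell type markers; other names complete a count. Alternatives changed the pseudocount (0.1), filter, scaling, variance model, libraries in the fit, fold threshold (1.5), replicate block and left-out library, took the recovered reads into limma-voom, removed length and GC trends, or kept protein-coding genes. Tables and figures were made with numpy 2.4.6, pandas 2.3.3 and matplotlib 3.10.9 under Python 3.11.15. A few items that these steps cover are not reported here.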

Additional observations from a re-analysis of the deposited data

How the results depend on the processing

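The count of 408 genes changed, 347 higher and 61 lower, depended on the processing more than the fibroblast genes did. In the order changed, higher and lower, the counts were 46, 41 and 5 with the 6 libraries alone, 188, 156 and 32 with no filter, 29, 26 and 3 with a fold of at least 1.5, 1052, 838 and 214 with limma-voom on recovered reads (6.53% and 1.67%), 716, 600 and 116 with protein-coding genes alone, and 110, 76 and 34 with length and GC trends removed. Median-of-ratios rescaling gave 99 falls and quantile normalisation 108, so that 76.81% and 74.77% of calls were higher against 85.05%. The 2 alternatives added after the data were seen, trends removed with the replicate block and with the 6 libraries alone, gave 60, 43 and 17, and 26, 20 and 6. With 1 library left out the counts ran from 47 to 365 changed, 45 to 299 higher and 1 to 75 lower, the lowest without 10:4 replicate 2 and 10:2 replicate 2. The cause was not tested.

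The 17 fibroblast rises became 11 with the 6 libraries alone and with the fold threshold, and 13 to 17 with a library left out. Where that library was of 10:4, THY1, THBS2 and COL5A2 were not tested. Of the 68 named genes that passed, 11 stayed past the threshold under each alternative that gave them a value, 21 alternatives except for THY1: ACTA2, COL1A1, COL1A2, COL3A1, COL5A1, COL6A3, IGFBP7, MYL9, SPARC, TAGLN and THY1. THY1 had a value in 18, since it reached the filter only through 10:4 and was not tested with a library of 10:4 left out. KIF5B, RANBP2, TOP2A and TGFBI missed only the fold threshold, and CENPF only the fit of 6 libraries with trends removed. NDUFB5 turned from 0.16 to -0.0116 (log2) in the 3 fits with trends removed. The share of calls with the same direction in 10:6 against BON-1 alone, 97.3%, was 93.09% with no filter, 82.76% with the fold threshold, 92.73% with trends removed, 95% with the block added to that, and 96.25% to 100% with a library left out; the fit of 6 libraries gives no such value.

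Replicate numbers did not pair the libraries: same-numbered libraries of 10:2 and 10:4 had correlations of -0.044, -0.021 and -0.025 in their deviations. With the replicate block, 191 genes passed, 174 higher and 17 lower. Depth limits the lowest genes: FAP rested on 5 reads over the libraries of 10:2 and 16 over those of 10:4.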

Other observations

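Outside the fixed lists, 4 more calls that passed both as deposited and with length and GC trends removed are given as values. They were picked after their values were seen, with no list or count behind them, and none of the 4 passed with the 6 libraries alone. FSTL1, a secreted glycoprotein, was at 1.76, 1.23 and 1.06 FPKM at 10:2 and at 2.88, 3.66 and 2.89 at 10:4 (log2 difference 0.82, limma adjusted p = 0.00375). SPON2, a matrix protein, rose from 2.36 ± 0.693 to 4.55 ± 0.315 FPKM (mean ± SD, n = 3), ANXA6, an annexin, from 1.16 ± 0.292 to 2.34 ± 0.169, and PTRF, a caveolar coat protein, from 4.71 ± 0.253 to 6.25 ± 0.512.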
